A study of Mus musculus with 12 samples.

Results

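The glycolysis and hypoxia-responsive genes were followed in the 4T1 mouse mammary carcinoma line as a fixed list of 36 genes, out of 35521 genes with a value in the tables. Positions below are those of the GENCODE M21 annotation of GRCm38 and span each gene from its first to its last base. The list held 17 glycolytic enzymes, 6 genes of glucose and lactate transport and of the control of glycolysis, and 13 other genes listed as hypoxia-responsive. It was drawn up with earlier results of these data known. Whether each of the 13, Hif1a and Selenbp1 among them, responds to low oxygen in these cells was not tested. RNA came from 12 libraries in 3 groups of 4. Tu-Gr1+CD11b+–primed cells (Tu-primed, labelled 4T1_MDSC_T) were 4T1 cells that shared a medium for 48 h with Gr1+ cells taken from 4T1 tumors. Spl-Gr1+CD11b+–primed cells (Spl-primed, labelled 4T1_MDSC_S) had Gr1+ cells from the spleens of tumor-bearing mice instead, and parental 4T1 cells (labelled 4T1) were not cocultured. The Gr1+ cells were enriched on magnetic columns from Balb/C mice at day 21 after the injection of 4T1 cells, and membranes with pores of 0.4 µm kept them apart from the cancer cells, which were lysed in their wells. The 3 groups share 1 cell line, and the labels do not say whether the 4 libraries of a group came from separate cultures or animals, so p-values measure the spread between these samples, which may be technical.

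Glycolysis splits glucose into pyruvate in a fixed order of steps, and most steps can be run by more than 1 isoenzyme, each made from its own gene. Cells short of oxygen stabilize the transcription factor HIF-1, whose oxygen-regulated subunit is made by Hif1a. HIF-1 binds short motifs near its target genes and raises glucose transporters, glycolytic enzymes, the kinase PDK1 that holds pyruvate back from the mitochondria, and genes for vessel growth, acid balance, collagen and mitophagy. In tumors the same genes are also raised by growth factor and cytokine signaling with oxygen present, and many are abundant in cultured carcinoma cells.

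Estimated counts were summed per gene, and levels are given as CPM (a gene's share of its library's counts, on a common scale) after TMM scaling, which sets the libraries to a common level for most genes. Library totals lay between 24566183 and 31637755 counts. A gene was called when the adjusted p of edgeR's quasi-likelihood test lay under 0.05 among 12555 genes tested, and fold changes are log2 values with their SE. The members' SEs rest on 4 libraries a group. The choice of scaling matters for the comparisons with parental cells. Without TMM factors the median log2 change of all genes tested stood at 0.21 in Tu-primed and 0.19 in Spl-primed against parental cells. On deposited TPM it stood at 0.44 and 0.37, and with TMM at 0.02 and 0.02. Changes against parental cells are therefore read relative to that median. Between Tu-primed and Spl-primed cells the median moved by less than 0.1 under each scaling.

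Most of the 13 hypoxia-responsive genes rose in primed cells, with larger median changes in Tu-primed cells, whereas the glycolytic enzymes divided. In Tu-primed against parental cells, 12 of the 13 hypoxia-responsive genes were called higher, and 0 were lower (0 also at an unadjusted p under 0.05 by edgeR and 0 by DESeq2), beside 31.2% of all genes tested called higher and 28.0% called lower. Of the 22 glycolysis genes tested, 8 passed in the upward and 9 in the downward direction, and calls fell in both directions, as they did over all genes. In Spl-primed against parental cells, 9 of 13 hypoxia-responsive genes passed upward and 0 downward by edgeR, where DESeq2 called 1, Hif1a, lower, and 4 of 22 glycolysis genes were called higher and 6 lower, beside 25.7% and 22.5% of all genes. The median log2 change of the 13 hypoxia-responsive genes was 0.96 in Tu-primed and 0.50 in Spl-primed cells against parental cells, and that of the 17 enzymes was -0.21 and -0.18, with medians of 0.02 and 0.02 over all genes. On deposited TPM the enzymes' medians were 0.28 and 0.25, above 0 but below the medians of all genes.

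Directly between Tu-primed and Spl-primed cells, 10 of the 35 members tested were called higher in Tu-primed cells and 0 lower (0 also at an unadjusted p under 0.05 by edgeR and 0 by DESeq2), beside 4.66% of all genes called higher and 2.97% called lower. They were Hk2, Pfkp and Pdk1 among 22 glycolysis genes, and Bnip3, Car9, Vegfa, Ndrg1, P4ha2, Hif1a and Selenbp1 among the 13 hypoxia-responsive genes. In 13 members every Tu-primed library lay above every Spl-primed library, beside 8.51% of all genes. In none did every Tu-primed library lie below, and the share of all genes that did was not counted. The median log2 change was 0.41 for the hypoxia-responsive genes, -0.01 for the enzymes and -0.01 for all genes.

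**Figure D1:**
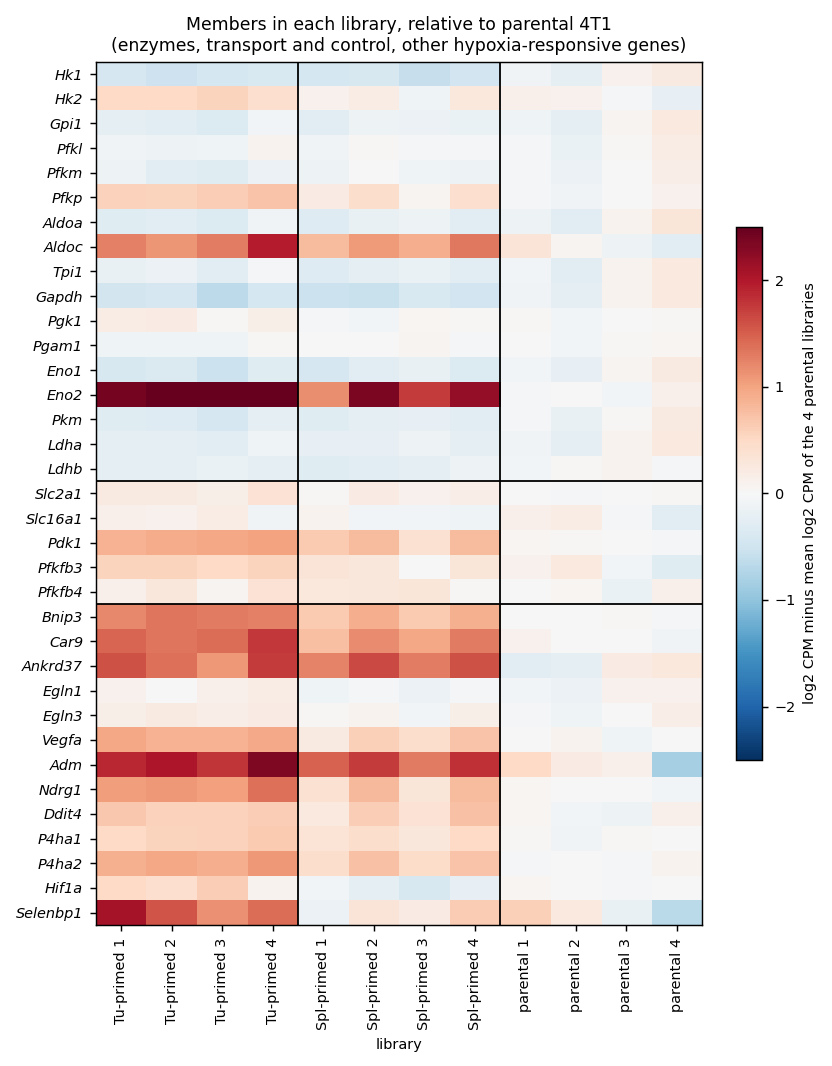
Level of the 35 members with counts in each of the 12 libraries, as log2 CPM (TMM) minus the mean log2 CPM of the 4 parental libraries (color scale, -2.5 to 2.5); lines part the 3 groups of libraries and the 3 classes of genes. Hk2, Pfkp, Aldoc, Eno2, Pdk1 and the hypoxia-responsive genes other than Egln1 are above the parental mean in all 4 Tu-primed libraries; the blue of Hk1, Gapdh, Eno1 and Pkm, below that mean with TMM, stands between -0.09 and 0.18 (log2) on deposited TPM.

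Among the enzymes, 4 isoenzymes that were not the most abundant gene of their step rose in Tu-primed cells: Hk2, Pfkp, Aldoc and Eno2. Eno2 (chr6:124760053-124769673, minus strand), the enolase best known from neurons, had the largest change of the members. It stood at 10.3, 12.3, 11.1 and 11.0 CPM in the Tu-primed libraries, 4.33, 9.88, 6.50 and 8.87 in the Spl-primed libraries and 1.89, 1.94, 1.84 and 2.12 in the parental libraries. The parental libraries hardly differed, and every primed library lay above them. Its log2 change against parental cells was 2.52 ± 0.21 in Tu-primed cells (5.72-fold, edgeR adjusted p = 7.4e-07) and 1.92 ± 0.22 in Spl-primed cells (3.78-fold, edgeR adjusted p = 1.6e-05). The Spl-primed libraries spread over a wide range below the Tu-primed ones, and the difference between Tu-primed and Spl-primed cells, 0.60 ± 0.18, did not pass the test (edgeR adjusted p = 0.063, between 0.024 and 0.64 over 24 alternatives, of which 6 called it). Eno2 held 44 to 318 counts per library, so its counting error is larger than that of the abundant enzymes. Transcripts annotated as retained introns or as targets of nonsense-mediated decay took 56.4 ± 2.49% (SD, n = 4) of its counts in Tu-primed, 51.0 ± 13.0% in Spl-primed and 28.0 ± 12.4% in parental cells, and with protein-coding transcripts alone its changes were 1.80 ± 0.32 and 1.43 ± 0.32.

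Aldoc (chr11:78322968-78327781, plus strand), an aldolase isoenzyme found mostly in brain, stood at 7.52, 6.76, 7.62 and 12.3 CPM in the Tu-primed libraries, 5.46, 6.57, 5.92 and 7.90 in the Spl-primed libraries and 3.94, 3.29, 2.89 and 2.64 in the parental libraries. The groups of primed libraries lay above the parental group without overlap, and 1 Tu-primed library, replicate 4, was far above the others. Its log2 change was 1.42 ± 0.20 in Tu-primed (edgeR adjusted p = 4.0e-05) and 1.01 ± 0.20 in Spl-primed cells (edgeR adjusted p = 0.001). Pfkp (chr13:6579768-6648777, minus strand), the platelet-type phosphofructokinase of the committed step, stood at 97.7, 95.2, 99.4 and 107 CPM in the Tu-primed libraries, 74.9, 88.2, 68.1 and 87.4 in the Spl-primed libraries and 64.2, 61.2, 65.2 and 70.4 in the parental libraries. Its change was 0.61 ± 0.08 in Tu-primed and 0.29 ± 0.08 in Spl-primed cells, and the 4 Tu-primed libraries also lay above the Spl-primed ones by 0.32 ± 0.08 (edgeR adjusted p = 0.021). That last call was lost without Tu-primed replicate 1 or 3 or Spl-primed replicate 1, at edgeR adjusted p between 0.051 and 0.068, and on TPM (limma adjusted p = 0.073).

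Hk2 (chr6:82725025-82774454, minus strand), the inducible hexokinase that sits on the mitochondrial outer membrane, is described because it differed between Tu-primed and Spl-primed cells and was chosen after its values were seen. It stood at 194, 192, 201.6 and 183 CPM in the Tu-primed libraries, 147, 154, 127 and 164 in the Spl-primed libraries and 148, 148, 134 and 118 in the parental libraries. Every Tu-primed library lay above every other library, and the Spl-primed and parental libraries overlapped. Its change was 0.49 ± 0.08 against parental cells (edgeR adjusted p = 2.0e-04) and 0.38 ± 0.08 against Spl-primed cells (edgeR adjusted p = 0.012), and 0.11 ± 0.08 for Spl-primed against parental cells (edgeR adjusted p = 0.27). The call against Spl-primed cells did not hold with length offsets or on deposited TPM, at edgeR adjusted p = 0.17 and limma adjusted p = 0.27.

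Apart from Pgk1, called higher, the most abundant gene of each step was called lower in Tu-primed than in parental cells or not called, with TMM. Pkm (pyruvate kinase), Ldha (lactate dehydrogenase A), Gapdh (glyceraldehyde-3-phosphate dehydrogenase), Aldoa (aldolase A) and Eno1 (enolase 1) were called lower in Tu-primed than in parental cells with TMM scaling, and stood above 0 on deposited TPM. Gapdh (chr6:125161715-125166467, minus strand) stood at 1779, 1829, 1566 and 1806 CPM in the Tu-primed libraries, 1683, 1674, 1891 and 1758 in the Spl-primed libraries and 2297, 2081, 2588 and 2913 in the parental libraries. The primed groups overlapped each other and lay below all parental libraries, with changes of -0.50 ± 0.09 in Tu-primed (edgeR adjusted p = 3.6e-04) and -0.50 ± 0.09 in Spl-primed cells (edgeR adjusted p = 6.4e-04), against -0.31 and -0.32 by library size alone and 0.04 and 0.01 on TPM. Hk1 (chr10:62268855-62379908, minus strand), the housekeeping hexokinase, stood at 210.1, 195, 207 and 215 CPM in the Tu-primed libraries, 207, 212, 186 and 201.5 in the Spl-primed libraries and 263, 236, 301 and 326 in the parental libraries. It was lower by a similar amount in both primed groups, -0.44 ± 0.08 and -0.48 ± 0.08 on the log2 scale with TMM, and 0.05 and -0.09 on TPM. Relative to the median of all genes, Gapdh and Hk1 were lower in both primed groups under each of the 3 scalings.

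Pkm (chr9:59656368-59679375, plus strand) was the member with the most counts, at 3913, 3882, 3629.7 and 4155 CPM in the Tu-primed libraries, 3925, 4155, 4187 and 4014 in the Spl-primed libraries and 4651, 4248, 4919.8 and 5617 in the parental libraries. Ldha (chr7:46841475-46855627, plus strand), which turns pyruvate into lactate, stood at 2366, 2337, 2286 and 2580.1 CPM in the Tu-primed libraries, 2384, 2408, 2546 and 2358 in the Spl-primed libraries and 2612, 2323, 2952 and 3251 in the parental libraries. In both, parental replicate 4 was the highest of all 12 libraries, and for Ldha the parental libraries overlapped both primed groups. The changes of Pkm were -0.32 ± 0.08 (edgeR adjusted p = 0.0027) and -0.26 ± 0.08 (edgeR adjusted p = 0.014), against 0.18 and 0.12 on TPM. Those of Ldha were -0.22 ± 0.09 (edgeR adjusted p = 0.042) and -0.20 ± 0.09 (edgeR adjusted p = 0.07), against 0.24 and 0.16 on TPM.

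Eno1 (chr4:150236721-150248879, plus strand) stood at 1276, 1317, 1162 and 1371 CPM in the Tu-primed libraries, 1269, 1385, 1478 and 1333 in the Spl-primed libraries and 1603, 1465, 1770.4 and 1962 in the parental libraries, and Aldoa at 1469, 1492, 1417 and 1699 CPM in the Tu-primed libraries, 1449, 1579, 1647 and 1515 in the Spl-primed libraries and 1651, 1509, 1914 and 2235 in the parental libraries. Both were lower in Tu-primed than in parental cells with TMM, at -0.41 ± 0.09 for Eno1 (edgeR adjusted p = 0.001) and -0.27 ± 0.10 for Aldoa (edgeR adjusted p = 0.038), and at 0.02 and 0.18 on TPM. In Spl-primed against parental cells Eno1 was lower, at -0.32 ± 0.09 with TMM (edgeR adjusted p = 0.0077) and stood at -0.04 on TPM, and Aldoa, at -0.24 ± 0.10, did not pass the test (edgeR adjusted p = 0.068). Gpi1, the isomerase of the step after hexokinase, stood at 609, 602, 566 and 683 CPM in the Tu-primed libraries, 600.2, 657, 653 and 641 in the Spl-primed libraries and 670.3, 619.7, 752 and 856 in the parental libraries. Its Tu-primed change, -0.24 ± 0.09 with TMM (edgeR adjusted p = 0.033), was 0.28 on TPM. The calls of Gpi1, Aldoa and Ldha in Tu-primed against parental cells were each lost without Tu-primed replicate 1, 2 or 3 or parental replicate 3 or 4, at edgeR adjusted p between 0.066 and 0.15. All 3 were also lost with upper-quartile factors and in a fit of those 8 libraries alone, at edgeR adjusted p between 0.053 and 0.073. Ldha alone was also lost, barely, without Spl-primed replicate 1, 2 or 4, at edgeR adjusted p between 0.050 and 0.052.

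At the 4 remaining steps few differences passed the test. Triosephosphate isomerase, Tpi1, stood at 879.9, 897, 833 and 974 CPM in the Tu-primed libraries, 795, 847, 883 and 828 in the Spl-primed libraries and 951, 834, 1054 and 1179.7 in the parental libraries, and only its Spl-primed fall with TMM was called, at -0.26 ± 0.09 (edgeR adjusted p = 0.025), a value of 0.13 on TPM. That call was lost without Spl-primed replicate 1 or 4 or parental replicate 3 or 4, at edgeR adjusted p between 0.056 and 0.084. Pgk1, the first step of glycolysis that makes ATP, stood at 1367, 1388, 1239 and 1335 CPM in the Tu-primed libraries, 1163, 1151, 1259 and 1237 in the Spl-primed libraries and 1226, 1152, 1221 and 1241 in the parental libraries. It alone of the abundant enzymes stood higher in Tu-primed than in parental cells under all 3 scalings, at 0.14 ± 0.05 with TMM (edgeR adjusted p = 0.039), but that call was lost without Tu-primed replicate 1, 2 or 4 or parental replicate 1, 2 or 3, at edgeR adjusted p between 0.060 and 0.11. It was also lost with RLE factors (0.072), no filter (0.085), length offsets (0.062), a replicate block (0.070) and near-identical copies summed (0.13). Pgam1 (phosphoglycerate mutase) stood at 823, 817, 819 and 903 CPM in the Tu-primed libraries, 874, 874, 928 and 858 in the Spl-primed libraries and 882, 836, 894 and 911 in the parental libraries, and Pfkl, the liver-type phosphofructokinase, at 544, 529.8, 543 and 621 CPM in the Tu-primed libraries, 548, 593, 568 and 569 in the Spl-primed libraries and 561, 521, 594 and 660.4 in the parental libraries. With TMM, neither was called in any of the 3 comparisons. The less abundant Pfkm and Ldhb stood at 35.7 to 40.3 CPM in Tu-primed, 39.9 to 43.9 in Spl-primed and 39.7 to 49.5 in parental cells, and at 23.7 to 24.9 CPM in Tu-primed, 22.8 to 25.8 in Spl-primed and 26.8 to 29.7 in parental cells. Ldhb was lower in both primed groups with TMM (-0.22 ± 0.06 and -0.23 ± 0.06) and at 0.15 and 0.25 on TPM, and Pfkm was called lower in Tu-primed cells alone (-0.21 ± 0.07 with TMM, 0.01 on TPM), a call lost without Tu-primed replicate 2 or 3 or parental replicate 4 (edgeR adjusted p between 0.052 and 0.056).

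**Figure D2:**
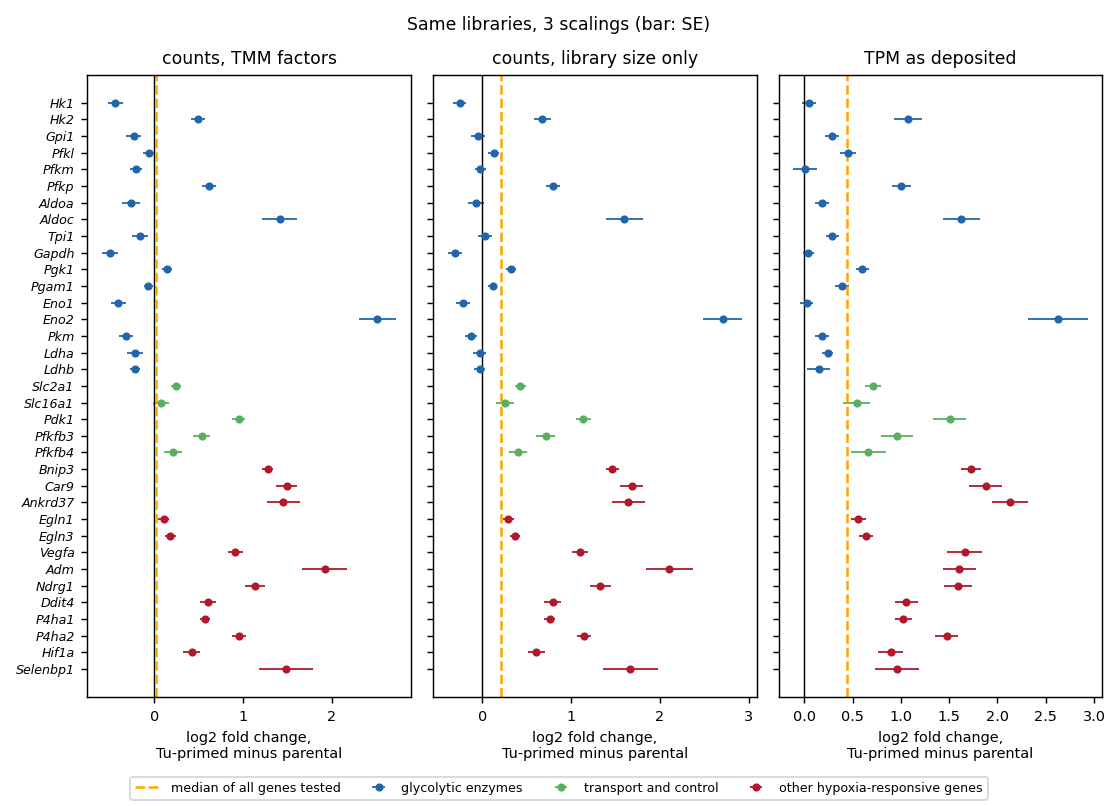
Log2 fold change of each member in Tu-primed minus parental 4T1 cells (points, with SE) on counts with TMM factors, counts scaled by library size alone, and deposited TPM; the dashed line is the median of all 12555 genes tested (0.02, 0.21 and 0.44). The enzymes to the left of 0 with TMM move to or past 0 on TPM, yet 12, 12 and 11 of 17 enzymes lie below the dashed line in the 3 panels, and all 13 hypoxia-responsive genes lie above it in each. By definition as many of all genes lie below the line as above it.

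Relative to the median of all genes, 12 of 17 enzymes lay lower in Tu-primed than in parental cells with TMM, 12 by library size and 11 on TPM. For Spl-primed cells those numbers were 13, 13 and 10. By definition as many of all genes lie below that median as above it. Between the primed groups none of the 11 most abundant genes of their steps was called by edgeR with TMM, at log2 changes from -0.09 to 0.15 and adjusted p of 0.12 or more. The 17 enzymes held between 1.53% and 1.88% of all counts in each library and between 1.56% and 2.00% of all TPM, with parental replicate 4 the highest in counts and Tu-primed replicate 4 the highest in TPM.

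Some of the abundant enzymes share sequence with other genes, which limits how exactly reads can be given to them. Of the 31-base words of the Gapdh transcript with the highest TPM, 74.4% also occur in transcripts of other genes, and the processed pseudogene Gm13394 on chromosome 2 was given 59033 to 104827 counts per library, against 44803 to 72880 for Gapdh. Eno1 shared 57.5% of the words of its main transcript with the retrogene Eno1b, which was given 29324 to 52097 counts, and Pgk1 shared 68.1% with Gm5537, which was given 4569 to 9291. When each pair was summed, the Tu-primed change was -0.51 for Gapdh, -0.47 for Eno1 and 0.11 for Pgk1 with TMM, and the call of Pgk1 was lost (edgeR adjusted p = 0.13). Pkm, Ldha, Ldhb, Pgam1, Aldoa, Gpi1, Bnip3 and Selenbp1 also shared between 26.5% and 67.2% of their words with other genes. Of the genes that shared more than a small part of these words, the one with the most counts was given 6 or fewer in every library. Genes that shared only a small part were not ranked by their counts. Tpi1 shared 18.2%, and a second gene model with the symbol Aldoa was given 8 to 38 counts per library. The rising isoenzymes Eno2, Aldoc, Pfkp and Hk2 shared at most 0.24%.

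Shares within a step do not depend on the scaling between libraries, and they were taken per length, from TPM. Hk2 made up 37.9, 41.4, 41.6 and 34.7% of hexokinase TPM (Hk1 and Hk2) in Tu-primed libraries, 30.968, 33.1, 41.3 and 35.2% in Spl-primed libraries and 27.0, 27.9, 21.5 and 18.9% in parental libraries. Hk1 was thus the major hexokinase in every library, and Hk2 had its lowest share in the parental ones. Pfkp made up 9.66 ± 0.33% (SD, n = 4) of phosphofructokinase TPM in parental, 11.6 ± 0.446% in Spl-primed and 14.0 ± 0.232% in Tu-primed cells, and the 3 groups did not overlap, while Pfkl stayed between 79.4% and 82.6% in every library. Aldoc and Eno2 stayed far below their abundant partners. Aldoc made up 0.428 ± 0.0729%, 0.324 ± 0.0457% and 0.139 ± 0.0418% of aldolase TPM, and Eno2 0.461 ± 0.118%, 0.363 ± 0.151% and 0.059 ± 0.0224% of enolase TPM in Tu-primed, Spl-primed and parental cells (Eno1b not counted). The share of Ldhb in lactate dehydrogenase was 1.43 ± 0.212%, 1.62 ± 0.137% and 1.53 ± 0.284%, with overlapping groups. Of 24 such tests, 12 reached 0.029 by an exact two-sided permutation test, the smallest p that 4 against 4 libraries allow, and none passed after Benjamini-Hochberg adjustment (0.057 for those 12).

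**Figure D3:**
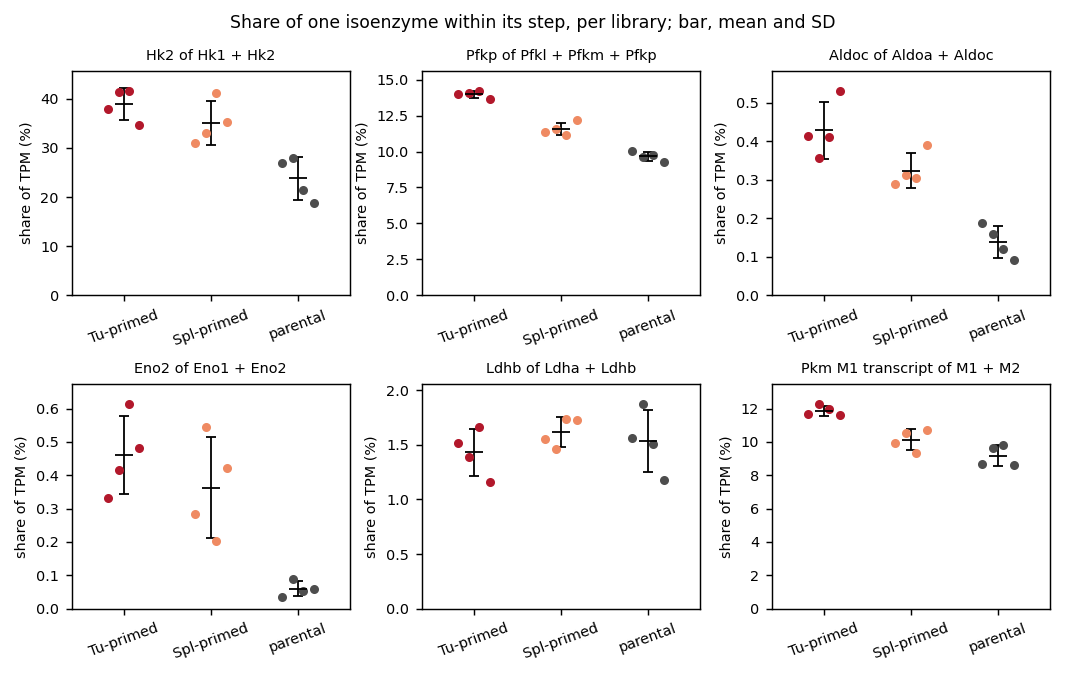
Share of 1 isoenzyme in the summed TPM of its step, in percent, for each library (points) with the mean and SD of 4 libraries, in Tu-primed, Spl-primed and parental cells. The shares of Hk2, Pfkp, Aldoc and Eno2 are lowest in parental cells without overlap with either primed group, and the share of Ldhb overlaps in all 3 groups; in the last panel, the Pkm M1 transcript lies between 11.6% and 12.3% in Tu-primed and between 8.62% and 9.80% in parental cells.

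The pyruvate kinase gene Pkm makes its M1 or M2 form by using 1 of a pair of alternative exons, and the M2 form is the one usual in proliferating cells. Both exons are 167 bases long and equal at 103 bases, 61.7%. They are shown as the pair of exons that names the 2 forms. The letters follow the GENCODE M21 annotation of GRCm38, 5′ to 3′, with bases that differ from the partner exon in capitals.
M1 exon of Pkm (chr9:59675029-59675195, plus strand): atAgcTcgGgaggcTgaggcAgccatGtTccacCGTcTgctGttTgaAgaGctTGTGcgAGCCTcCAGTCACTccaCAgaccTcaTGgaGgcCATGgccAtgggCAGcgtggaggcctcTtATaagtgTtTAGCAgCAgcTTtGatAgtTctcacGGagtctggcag
M2 exon of Pkm (chr9:59675568-59675734, plus strand): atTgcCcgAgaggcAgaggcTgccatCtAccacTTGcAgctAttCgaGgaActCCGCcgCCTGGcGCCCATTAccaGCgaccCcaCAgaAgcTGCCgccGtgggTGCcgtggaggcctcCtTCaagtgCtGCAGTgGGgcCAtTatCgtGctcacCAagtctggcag

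The M2 transcript was the major one in every library. The M1 transcript made up 11.7, 12.3, 11.995 and 11.6% of the TPM of both in Tu-primed libraries, 9.94, 10.6, 9.35 and 10.7% in Spl-primed libraries and 8.65, 9.63, 9.80 and 8.62% in parental libraries. The Tu-primed libraries lay above both other groups, which overlapped, with a difference of 2.71 percentage points from parental cells (exact two-sided permutation p = 0.029, 0.057 after adjustment over the 24 shares). These shares are transcript estimates made before deposition and not reads counted on the exons. They compare 1 M1 transcript, Pkm-202, with 1 M2 transcript, Pkm-201, which held 70.8% of the gene's mean TPM. Other transcripts of Pkm were left out.

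Of the 5 transport and control genes tested, Pdk1, Pfkfb3 and Slc2a1 rose in Tu-primed cells. Pdk1 (chr2:71873224-71903858, plus strand), the kinase that shuts off pyruvate dehydrogenase, stood at 112, 117, 119.9 and 123 CPM in the Tu-primed libraries, 95.8, 106, 79.8 and 105 in the Spl-primed libraries and 62.9, 62.1, 60.8 and 58.8 in the parental libraries. The 3 groups did not overlap. It was higher by 0.95 ± 0.08 in Tu-primed (1.93-fold, edgeR adjusted p = 5.3e-07) and by 0.66 ± 0.08 in Spl-primed cells (edgeR adjusted p = 2.2e-05), and by 0.29 ± 0.08 in Tu-primed against Spl-primed cells (edgeR adjusted p = 0.033). That last call was lost without any 1 of the Tu-primed libraries or Spl-primed replicate 1, at edgeR adjusted p between 0.055 and 0.098. It was also lost with length offsets (0.15), in a fit of those 8 libraries alone (0.051), with a replicate block (0.051) and on TPM (limma adjusted p = 0.25). Pfkfb3 (chr2:11471433-11554077, minus strand), which makes the activator of phosphofructokinase fructose-2,6-bisphosphate, stood at 41.2, 41.3, 39.7 and 41.1 CPM in the Tu-primed libraries, 34.9, 33.9, 28.0 and 34.5 in the Spl-primed libraries and 30.1, 33.2, 26.8 and 22.8 in the parental libraries. It was higher in Tu-primed than in parental cells by 0.53 ± 0.10 (edgeR adjusted p = 4.0e-04), and every Tu-primed library lay above every Spl-primed one, though that difference, 0.31 ± 0.10, did not pass (edgeR adjusted p = 0.066, between 0.017 and 0.34 over 24 alternatives, of which 5 called it). Its relative Pfkfb4 stood at 6.47 to 7.95 CPM in Tu-primed, 6.33 to 7.63 in Spl-primed and 5.49 to 6.75 in parental cells and was not called in any comparison with TMM.

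The glucose transporter gene Slc2a1 (GLUT1) stood at 231 to 267 CPM in Tu-primed, 211 to 241 in Spl-primed and 205 to 213 in parental cells. It was higher in Tu-primed than in parental cells by 0.24 ± 0.06 (edgeR adjusted p = 0.0021), without overlap, and the Spl-primed change of 0.13 ± 0.06 did not pass (edgeR adjusted p = 0.072). For lactate export, Slc16a1 (MCT1) stood at 292 to 351 CPM in Tu-primed, 288 to 329 in Spl-primed and 255 to 349 in parental cells, with no call. Slc16a3, the hypoxia-responsive lactate exporter MCT4, had 0 counts in all 12 libraries, which allows up to 3 counts or at most 0.125 CPM in a library. It was the 1 member of 36 that could not be tested.

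The hypoxia-responsive genes made a more even picture. The core of the DNA motif that HIF-1 binds was looked for in the 250 bases before the RefSeq start nearest to the main transcript of each gene (build GRCm38.p6), as ACGTG or GCGTG on either strand. CACGTG counts as 2 matches of ACGTG, 1 on each strand, and matches of both motifs can overlap on opposite strands. Windows were at hand for 34 members. Of 12 hypoxia-responsive genes, 10 held ACGTG (83.3%), beside 6 of 17 enzymes (35.3%), 3 of 5 transport and control genes (60.0%), 21.9% of 9547 genes tested and 16.6% of all 32851 windows. GCGTG was in 66.7% of the hypoxia-responsive genes, 47.1% of the enzymes, all 5 of the transport and control genes, 46.5% of genes tested and 28.2% of all windows. A match is a description of the letters and no evidence of binding. Of the genes called higher in Tu-primed than in parental cells, Vegfa and Eno2 held neither motif. Adm, Pfkp, Aldoc and Pdk1 held GCGTG but no ACGTG. The window of Eno2 lay 1297 bases from the start of its main transcript. All windows printed below hold ACGTG. The windows of Bnip3, Ankrd37 and Car9, which rose, and of Ldha, which has the most matches of ACGTG of the members and was called lower in Tu-primed cells with TMM (0.24 above parental cells on TPM, log2), are printed 5′ to 3′ on the strand of the gene, with matches in capitals.
Bnip3 (chr7:138909507-138909756, minus strand): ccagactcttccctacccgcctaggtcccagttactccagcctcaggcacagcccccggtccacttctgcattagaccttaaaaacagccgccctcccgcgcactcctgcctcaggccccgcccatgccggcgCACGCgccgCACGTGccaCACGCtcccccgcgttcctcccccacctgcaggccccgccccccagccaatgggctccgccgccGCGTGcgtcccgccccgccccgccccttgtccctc
Ankrd37 (chr8:45999851-46000100, minus strand): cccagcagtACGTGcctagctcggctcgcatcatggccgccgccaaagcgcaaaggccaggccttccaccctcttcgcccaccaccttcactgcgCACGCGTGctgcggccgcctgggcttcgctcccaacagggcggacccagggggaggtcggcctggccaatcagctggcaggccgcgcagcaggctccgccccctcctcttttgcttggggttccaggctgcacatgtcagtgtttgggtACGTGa
Car9 (chr4:43506776-43507025, plus strand): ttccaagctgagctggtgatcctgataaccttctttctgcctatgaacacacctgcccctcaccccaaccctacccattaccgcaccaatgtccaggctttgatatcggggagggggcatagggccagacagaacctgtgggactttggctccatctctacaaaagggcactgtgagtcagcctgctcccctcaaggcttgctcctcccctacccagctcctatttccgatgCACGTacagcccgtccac
Ldha (chr7:46845554-46845803, plus strand): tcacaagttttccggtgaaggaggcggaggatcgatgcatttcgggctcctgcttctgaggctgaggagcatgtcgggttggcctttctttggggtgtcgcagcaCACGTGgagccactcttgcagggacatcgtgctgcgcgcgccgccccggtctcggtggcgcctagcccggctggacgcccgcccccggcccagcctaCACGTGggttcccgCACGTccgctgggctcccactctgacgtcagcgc

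Bnip3 (chr7:138890836-138909519, minus strand), a mitophagy receptor, stood at 195, 213, 209 and 200.5 CPM in the Tu-primed libraries, 133, 158, 132 and 157 in the Spl-primed libraries and 84.9, 84.2, 85.5 and 82.4 in the parental libraries. The parental libraries agree within a narrow range and the 3 groups did not overlap. Bnip3 was higher by 1.28 ± 0.07 in Tu-primed (2.42-fold, edgeR adjusted p = 2.3e-08), by 0.79 ± 0.07 in Spl-primed (1.72-fold, edgeR adjusted p = 1.1e-06) and by 0.49 ± 0.06 in Tu-primed against Spl-primed cells (edgeR adjusted p = 2.7e-04). Its promoter window holds 2 matches of ACGTG and 3 of GCGTG. Car9 (chr4:43506966-43513729, plus strand), carbonic anhydrase IX of the cell surface, which handles the acid of glycolytic cells, stood at 67.2, 61.6, 64.1 and 83.8 CPM in the Tu-primed libraries, 41.2, 55.9, 47.8 and 60.3 in the Spl-primed libraries and 26.5, 24.2, 24.2 and 23.2 in the parental libraries. Again the 3 groups did not overlap, though Spl-primed replicate 4 came within 2 CPM of Tu-primed replicate 2. The changes were 1.50 ± 0.12 and 1.06 ± 0.12 against parental cells (edgeR adjusted p = 4.1e-07 and 1.4e-05) and 0.43 ± 0.11 between the primed groups (edgeR adjusted p = 0.031), a call that was lost without Tu-primed replicate 1, 3 or 4 or Spl-primed replicate 1 or 3, at edgeR adjusted p between 0.054 and 0.086, in a fit of those 8 libraries alone (0.057), with length offsets (0.20) and on TPM (limma adjusted p = 0.22).

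**Figure D4:**
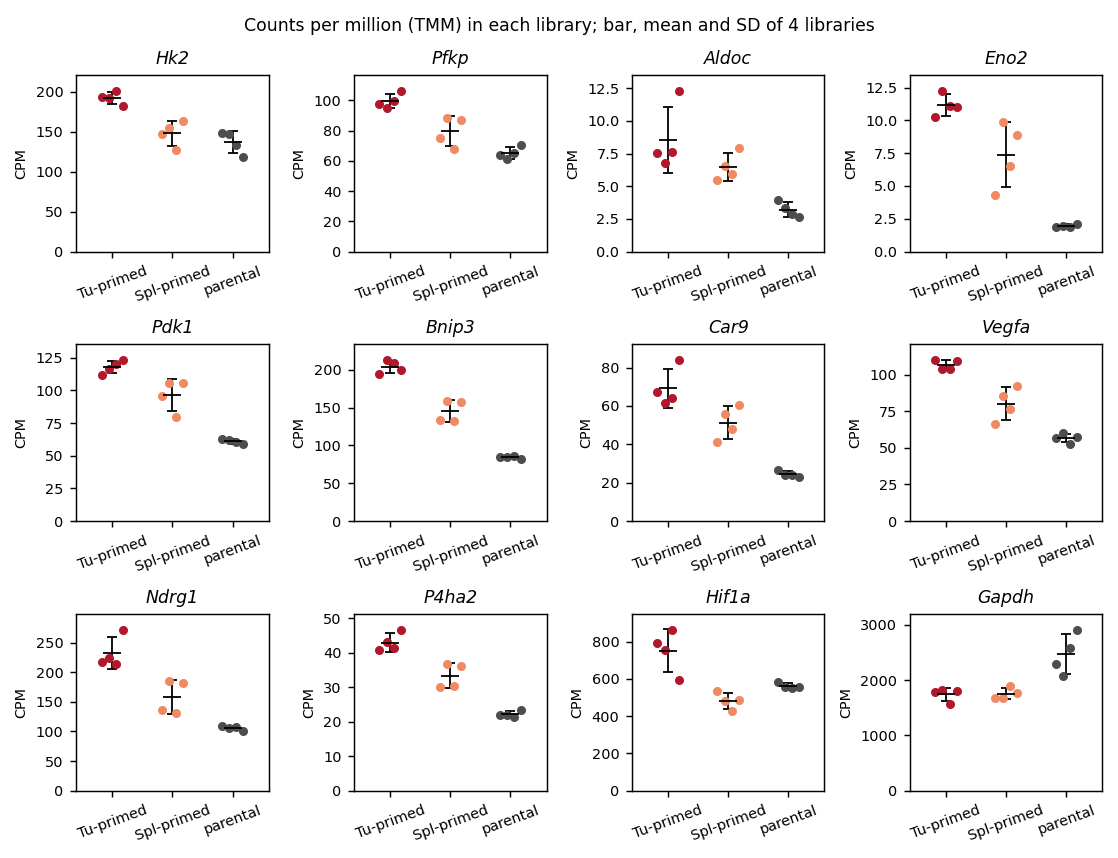
CPM (TMM) of 12 members in each library (points) with the mean and SD of 4 libraries, in Tu-primed, Spl-primed and parental cells; every axis starts at 0. Pdk1, Bnip3, Car9, Vegfa, Ndrg1 and P4ha2 are ordered Tu-primed, Spl-primed, parental without overlap. Hif1a is lowest in Spl-primed cells with TMM scaling but at 0.19 (log2, Spl-primed minus parental) on TPM. Gapdh is highest in parental cells with TMM scaling but at 0.04 (log2, Tu-primed minus parental) on TPM.

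Vegfa (chr17:46016993-46032369, minus strand), the growth factor for vessels, stood at 109.9, 104, 104 and 109 CPM in the Tu-primed libraries, 66.2, 85.1, 76.7 and 92.5 in the Spl-primed libraries and 56.8, 59.8, 52.7 and 57.1 in the parental libraries. The order of the groups was the same as for Bnip3, again without overlap, at 0.91 ± 0.08 and 0.50 ± 0.08 against parental cells (edgeR adjusted p = 1.5e-06 and 3.2e-04) and 0.41 ± 0.08 between the primed groups (edgeR adjusted p = 0.007). Ndrg1 (chr15:66929318-66969640, minus strand), a stress-induced gene linked to differentiation, stood at 217, 225, 214 and 272 CPM in the Tu-primed libraries, 137, 185, 131 and 182 in the Spl-primed libraries and 109, 105, 107 and 101 in the parental libraries. It was higher by 1.14 ± 0.11, 0.59 ± 0.11 and 0.55 ± 0.11 in the same 3 comparisons (edgeR adjusted p = 2.4e-06, 7.3e-04 and 0.0069). The last of these, like those of Bnip3 and Hif1a, was called under every alternative that was run. The calls of Vegfa, P4ha2 and Car9 between the primed groups did not hold with length offsets or on deposited TPM (adjusted p between 0.12 and 0.30).

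P4ha1 and P4ha2 are the catalytic subunits of collagen prolyl 4-hydroxylase. P4ha2 (chr11:54100095-54131665, plus strand) stood at 40.7, 43.1, 41.3 and 46.7 CPM in the Tu-primed libraries, 30.2, 36.8, 30.3 and 36.2 in the Spl-primed libraries and 21.8, 21.9, 21.5 and 23.4 in the parental libraries, and P4ha1 at 157, 164, 166 and 176 CPM in the Tu-primed libraries, 142, 152, 136 and 158 in the Spl-primed libraries and 115, 105, 114 and 113 in the parental libraries. Both were above the parental group in every primed library, P4ha2 by 0.96 ± 0.08 and 0.59 ± 0.08, and P4ha1 by 0.57 ± 0.06 and 0.39 ± 0.06. Between the primed groups, P4ha2 passed the test (0.36 ± 0.07, edgeR adjusted p = 0.0072) and P4ha1 did not (0.18 ± 0.06, edgeR adjusted p = 0.079). Ddit4 (chr10:59949669-59951834, minus strand), an inhibitor of mTORC1 signaling, stood at 56.3, 52.9, 52.4 and 54.3 CPM in the Tu-primed libraries, 41.6, 53.9, 45.3 and 58.4 in the Spl-primed libraries and 36.8, 33.9, 32.4 and 38.6 in the parental libraries. Here the primed groups overlapped and both exceeded the parental libraries, at 0.61 ± 0.09 and 0.49 ± 0.09 (edgeR adjusted p = 8.7e-05 and 7.8e-04).

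Adm and Ankrd37 were among the members with the fewest counts and the largest changes. Adm (chr7:110627661-110629820, plus strand), the vasodilator peptide adrenomedullin, stood at 1.85, 2.02, 1.71 and 2.53 CPM in the Tu-primed libraries, 1.38, 1.67, 1.23 and 1.77 in the Spl-primed libraries and 0.708, 0.577, 0.545 and 0.28 in the parental libraries, from 7 to 73 counts per library. Ankrd37 (chr8:45996902-46005707, minus strand), an ankyrin repeat gene known as a HIF-1 target, stood at 4.47, 3.88, 3.15 and 5.03 CPM in the Tu-primed libraries, 3.51, 4.65, 3.63 and 4.49 in the Spl-primed libraries and 1.25, 1.28, 1.72 and 1.80 in the parental libraries, from 31 to 145 counts. For both, the primed groups overlapped and all primed libraries lay above all parental ones. Adm changed by 1.92 ± 0.25 in Tu-primed and 1.50 ± 0.26 in Spl-primed cells (edgeR adjusted p = 2.5e-05 and 3.8e-04), and Ankrd37 by 1.46 ± 0.19 and 1.43 ± 0.19 (edgeR adjusted p = 2.0e-05 and 4.7e-05). Between the primed groups Ankrd37 differed by 0.02 ± 0.17, the smallest value among the 13 genes. With Car9, Bnip3, Ndrg1 and Selenbp1 they were the 6 hypoxia-responsive genes, and with Eno2 and Aldoc the 8 members, called higher in Tu-primed than in parental cells with a log2 change over 1, beside 6.9% of all genes tested. In Spl-primed cells 5 members passed both limits (Eno2, Aldoc, Adm, Ankrd37 and Car9), beside 4.36%.

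Hif1a (chr12:73901375-73947530, plus strand) itself followed another order. It stood at 793, 756, 864 and 595 CPM in the Tu-primed libraries, 533, 479, 427 and 489 in the Spl-primed libraries and 584, 556, 551 and 554 in the parental libraries. Every Spl-primed library lay below every parental one, and every Tu-primed library lay above both, with Tu-primed replicate 4 just over the highest parental library. The difference between Tu-primed and Spl-primed cells was 0.64 ± 0.10 (edgeR adjusted p = 7.5e-04), that between Tu-primed and parental cells 0.42 ± 0.10 (edgeR adjusted p = 0.0017), and that between Spl-primed and parental cells -0.22 ± 0.10 with TMM (edgeR adjusted p = 0.071), 0.19 on TPM. With RLE factors, DESeq2, no filter or a fit of those 8 libraries alone, Hif1a was called lower in Spl-primed than in parental cells. In Spl-primed cells 9 hypoxia-responsive genes were thus called higher beside a Hif1a level that was not. Tu-primed replicate 4, with the lowest Hif1a of its group, held the highest value of that group for 7 of the 13 hypoxia-responsive genes and for 14 of the 22 glycolysis genes. That is 1 library, and how often it was the highest over all genes was not counted. What part the Hif1a level has in the other members was not tested. All values are transcript levels, and the HIF-1 protein was not measured here. The HIF prolyl hydroxylases, which mark HIF-1 for breakdown when oxygen is present, differed by small amounts. Egln1 stood at 104 to 119 CPM in Tu-primed, 94.0 to 103 in Spl-primed and 93.6 to 112 in parental cells and was not called with TMM, and Egln3 stood at 297 to 313 CPM in Tu-primed, 258 to 298 in Spl-primed and 249.9 to 300.4 in parental cells and was called in Tu-primed against parental cells alone (0.18 ± 0.06, edgeR adjusted p = 0.024). That call was lost without Tu-primed replicate 2 or 4 or parental replicate 1, 2 or 3, at edgeR adjusted p between 0.051 and 0.071.

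Selenbp1 (chr3:94933056-94944758, plus strand), a methanethiol oxidase often low in carcinomas, was called higher in Tu-primed and not in Spl-primed cells. It stood at 1.60, 1.13, 0.839 and 1.01 CPM in the Tu-primed libraries, 0.345, 0.472, 0.436 and 0.591 in the Spl-primed libraries and 0.573, 0.453, 0.335 and 0.24 in the parental libraries, from 6 to 45 counts per library. The Tu-primed libraries lay above all others, which overlapped, at 1.48 ± 0.30 against parental (edgeR adjusted p = 8.0e-04) and 1.30 ± 0.29 against Spl-primed cells (edgeR adjusted p = 0.013). The second call was lost without Tu-primed replicate 1 or Spl-primed replicate 1 (edgeR adjusted p = 0.060 and 0.051) and with protein-coding transcripts alone (edgeR adjusted p = 0.12), and 67.2% of the words of its main transcript also occur in Selenbp2.

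**Figure D5:**
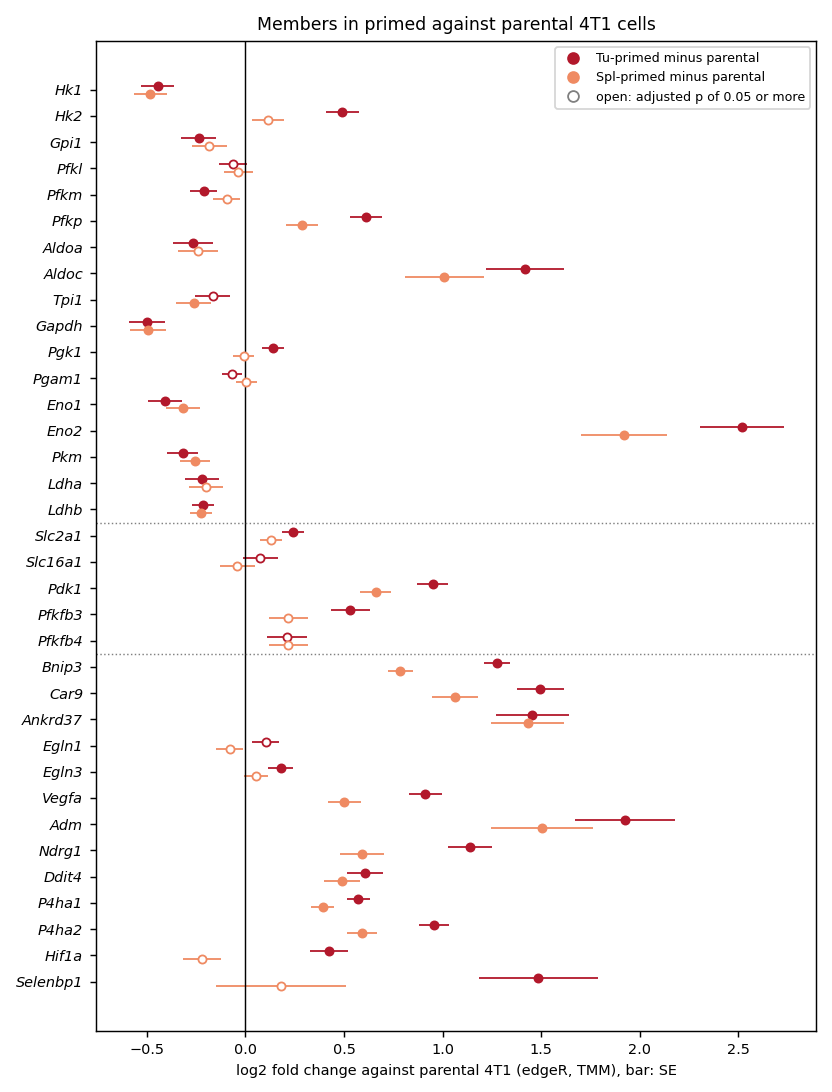
Log2 fold change (points) with SE (bars) of the 35 tested members in Tu-primed and Spl-primed against parental 4T1 cells on counts with TMM factors; filled points were called at an adjusted p under 0.05, and dotted lines part the enzymes, the transport and control genes, and the hypoxia-responsive genes. Both contrasts use the same 4 parental libraries; 12 and 9 of 13 hypoxia-responsive genes are filled to the right of 0, and of the enzymes called to the left of 0, all stand right of 0 on deposited TPM except Hk1 (-0.09) and Eno1 (-0.04) in Spl-primed cells.

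The deposited tables are per transcript, so the kind of transcript could be followed too. Transcripts annotated as retained introns or as targets of nonsense-mediated decay took 5.37% to 6.13% of all counts in the primed libraries and 3.93% to 4.35% in the parental libraries, over all genes. Of 23 members with such transcripts, the mean share of these transcripts in the gene's counts was larger in Tu-primed than in parental cells in 19 and larger in Spl-primed cells in 18. In 10 and 12 of them the exact two-sided permutation p was 0.029, the smallest it can be, and none passed adjustment over 69 tests (0.090). How many of all genes moved this way was not counted, so these counts do not set the members apart from the rise over all genes. In Pfkp the share was 10.9 ± 2.20% (SD, n = 4) in Tu-primed, 8.63 ± 2.40% in Spl-primed and 2.33 ± 0.847% in parental cells. In Vegfa it was 10.4 ± 0.643%, 11.8 ± 1.36% and 4.17 ± 1.88%. The leading one of these Vegfa transcripts by TPM, the retained-intron Vegfa-210, stood at 14.8 to 21.6 TPM in Tu-primed, 11.98 to 21.2 TPM in Spl-primed and 1.53 to 6.48 TPM in parental libraries. The most abundant protein-coding Vegfa transcript, with 1104 coding bases, stood at 27.6 to 30.5 TPM, 17.0 to 24.8 TPM and 8.59 to 12.8 TPM in the 3 groups. With protein-coding transcripts alone, Vegfa was still called higher in all 3 comparisons, and so was Pfkp. What part this shift has in the fold changes was not tested.

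Among 51 tested genes of a wider list of glycolysis, pyruvate, glycogen, pentose phosphate and HIF pathway genes, the test called 25 upward and 16 downward in Tu-primed against parental cells, 21 and 13 in Spl-primed against parental cells, and 7 and 1 between the primed groups. Over all genes the shares were the 31.2% and 28.0%, 25.7% and 22.5%, and 4.66% and 2.97% given above, and the downward counts lay near them. The highest of them by p in Tu-primed cells were Insig2 (a brake on sterol synthesis) at 0.77 ± 0.06, Bnip3l (a mitophagy receptor like Bnip3) at 0.72 ± 0.06 and Bhlhe40 (a repressor under HIF-1 control) at 1.39 ± 0.11. Bhlhe40 stood at 77.1, 76.0, 75.1 and 67.2 CPM in the Tu-primed libraries, 29.5, 40.1, 32.3 and 46.8 in the Spl-primed libraries and 27.1, 28.7, 27.6 and 29.5 in the parental libraries, so that the Tu-primed libraries lay far above the rest, by 0.99 ± 0.11 over Spl-primed cells (edgeR adjusted p = 8.2e-05). Bnip3l and Fam162a, a HIF-1 target in mitochondria, were also higher in Tu-primed than in Spl-primed cells, by 0.39 ± 0.06 and 0.45 ± 0.07. In Spl-primed against parental cells the 3 leading genes were Insig2 at 0.63 ± 0.06, the histone demethylase gene Kdm3a at 0.78 ± 0.08 and Pfkfb1 at 1.06 ± 0.12.

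The 3 genes of the list called lower against parental cells with the smallest p belong to the pentose phosphate pathway, which branches off after hexokinase and makes NADPH. Pgd stood at 245, 243, 224 and 240.1 CPM in the Tu-primed libraries, 268, 261, 285 and 247 in the Spl-primed libraries and 382, 344, 411 and 424 in the parental libraries, G6pdx, the first enzyme of the branch, at 192 to 214 CPM in Tu-primed, 220.2 to 245 in Spl-primed and 279 to 338 in parental cells, and Tkt (transketolase) at 287 to 347 CPM in Tu-primed, 335 to 394 in Spl-primed and 444 to 578 in parental cells. In each, all primed libraries lay below all parental libraries. The log2 changes with TMM were -0.71 ± 0.07, -0.62 ± 0.06 and -0.70 ± 0.08 in Tu-primed and -0.56 ± 0.07, -0.41 ± 0.06 and -0.46 ± 0.08 in Spl-primed cells (edgeR adjusted p of 0.00057 or less in each). On deposited TPM the values were -0.22, -0.13 and -0.23 in Tu-primed and -0.14, -0.03 and -0.04 in Spl-primed cells. With TMM, all 5 genes of this branch on the list were called lower in Tu-primed cells, beside 28.0% of all genes. In Spl-primed cells 3 of 5 were called lower, beside 22.5% of all genes. On TPM Taldo1 and Rpia stood above 0 in Tu-primed cells (0.19 and 0.20), though below the median of all genes on that scale. Between the primed groups, Rpia alone of this wider list was called lower, at -0.21 ± 0.06 (edgeR adjusted p = 0.040). G6pdx at -0.21 ± 0.06 and Tkt at -0.24 ± 0.08 did not pass there (edgeR adjusted p = 0.057 and 0.10).

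Because Gr1+ cells are granulocytes and monocytes, their marker genes were followed beside the members. Mpo, Elane, Camp, Ngp, Mmp8, Retnlg, Cd177 and Tyrobp had 0 counts in all 12 libraries, S100a9 at most 1, Ly6g at most 3 and Lyz2 at most 6 counts. Of 28 markers, 7 were tested, and the sum over the list, most of it Mmp9, was 174 to 206 CPM in Tu-primed, 148 to 166 CPM in Spl-primed and 144 to 148 CPM in parental libraries, in the same order as Bnip3. Mmp9 stood at 121 to 126 CPM in the parental libraries too. Ltf, Ly6c1 and S100a8 were called higher in Tu-primed than in Spl-primed cells, beside 4.66% of all genes, at levels of 1.08 to 5.18 CPM in Tu-primed libraries. Against parental cells 4 of the 7 tested markers were called higher and 1 lower in Tu-primed cells, beside 31.2% and 28.0% of all genes. In Spl-primed against parental cells none was called, beside 25.7% higher and 22.5% lower of all genes. All 12 epithelial markers were tested and their sum was 1953 to 2392 CPM, 2442 to 2632 CPM and 2712 to 4026 CPM in Tu-primed, Spl-primed and parental libraries. With TMM, 2 were called higher and 5 lower in Tu-primed and 2 and 4 in Spl-primed against parental cells, beside the same shares of all genes. None was called between the primed groups. The part of other cells or of this shift in the members' values was not tested. In bulk RNA, fewer cells with a gene and less RNA of it per cell cannot be told apart.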

How the data were processed

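RNA-seq of 12 libraries of the 4T1 cell line was analysed (TruSeq Stranded libraries; 3 groups of 4). The submitters' processing notes name FastQC, Trimmomatic 0.39 and Salmon 1.4.0 and the mouse build GRCm38 (mm10). The deposited tables give an estimated count, an effective length and a TPM value (abundance per length) for each transcript, as the authors' Salmon runs wrote them. The annotation release behind them is not given in the sources used here. A deposited table of normalized values was not used.

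Transcripts were assigned to genes with the GENCODE M21 annotation of GRCm38 (116021 of 117081 transcripts), and estimated counts were summed per gene and rounded. Genes were kept with filterByExpr, scaled by TMM factors (0.880 to 1.05) and tested with edgeR 4.0.16 (R 4.3.3, quasi-likelihood test, all 12 libraries in 1 fit, Benjamini-Hochberg over 12555 genes, threshold 0.05). Deposited TPM were tested with limma 3.58.1 on log2(TPM + 0.5), whose fold changes understate those of low genes. Library totals were 24566183 to 31637755 counts. Isoenzyme and transcript shares were compared by exact two-sided permutation tests. On simulated counts of the Tu-primed against Spl-primed comparison, 191 of 200 genes changed 1.5-fold were found and 7 unchanged genes called, among 12202 genes. The changed genes were drawn above a minimum level in parental cells, all other genes were kept equal, and both groups started from parental means. Smaller changes, such as those of Pdk1 and Pfkp between the primed groups, and genes of few counts, such as Selenbp1, were not simulated. The recovery does not describe how well those are found. The closest pair of libraries differed by more than sampling noise (chi-square per degree of freedom 3.46), so all 12 were kept.

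The members, the wider pathway list and the marker lists were chosen with earlier results of these data known. Values per library are given for members called with an absolute log2 change over 0.5 against parental or between primed cells and for the most abundant gene of each glycolytic step. Of the wider list, up to 3 genes a direction, ranked by p, are named with their changes. Alternatives were RLE and upper-quartile factors, DESeq2 1.42.0, limma-voom, no filter or a minimum of 10 counts in each library, a fit of the 2 groups in question alone, a replicate block, protein-coding transcripts only, length offsets, and leaving out each library. Promoter windows and symbols came from RefSeq (GRCm38.p6), of which 34 of 36 members had a window, 20 of them within 50 bases of the main transcript's start and the farthest 17941 bases away (Hk1). Tables and plots used Python 3.11.15 with pandas 2.3.3, numpy 2.4.6, scipy 1.17.1 and matplotlib 3.10.9.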

Additional observations from a re-analysis of the deposited data

Results flagged for a closer look

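Among 105 sets of 4 libraries (35 members in 3 groups), 7 had 1 library set apart from the other 3 by more than Dixon's 95% critical value. Chance alone flags about 1 in 20 such sets.

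Tu-primed replicate 4 stood apart for 3 glycolytic enzymes, each time above the others: Pfkl at 620.6 CPM (others 530 to 544), Aldoc at 12.32 CPM (others 6.76 to 7.62) and Pgam1 at 903.3 CPM (others 817 to 823). The same library was lowest of its group in Hif1a, at 595 CPM.

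Pfkfb3 was set apart in Tu-primed replicate 3 at 39.74 CPM, just under the other libraries (41.1 to 41.3), and in Spl-primed replicate 3 at 28.0 CPM (others 33.9 to 34.9). Pfkm was high in Spl-primed replicate 2 at 43.91 CPM (others 39.9 to 40.6), and Hif1a was high in parental replicate 1 at 583.8 CPM (others 551 to 556).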

How the results depend on the processing

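Of 58 called changes, 547 of 576 values under the alternatives that keep all libraries stayed on their side of the threshold and 29 lost the call, and leaving out 1 library at a time gave 645 and 51 of 696. None of these changed sign. Scaling by library size alone, deposited TPM and the summing of near-identical copies were added after seeing the data. On library size alone 48 of 58 calls held. On TPM 37 held, 8 were lost with the sign kept and 13 changed sign from below to above 0. In Tu-primed against parental cells the latter were Hk1 (0.047), Gpi1 (0.28), Pfkm (0.006), Aldoa (0.18), Gapdh (0.039), Eno1 (0.023), Pkm (0.18), Ldha (0.24) and Ldhb (0.15). In Spl-primed against parental cells they were Tpi1 (0.13), Gapdh (0.0058), Pkm (0.12) and Ldhb (0.25). Of these 13, Gpi1, Aldoa, Pkm and Ldha in Tu-primed cells passed as higher on TPM (limma adjusted p between 0.0022 and 0.041). The others did not pass on TPM (limma adjusted p between 0.079 and 0.97), so their calls were lost as well.

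Of the glycolysis genes, 3 called higher in Tu-primed than in Spl-primed cells became 6 with DESeq2, 5 without a filter, 1 with length offsets and 0 on TPM, where 6 of the 22 had an unadjusted p under 0.05 with limma. The 7 hypoxia-responsive genes became 4 with length offsets and 4 on TPM. Against parental cells, on library size alone 3 glycolysis genes were lower in Tu-primed cells and 10 higher and 2 lower in Spl-primed cells, and on TPM 17 were higher and 0 lower in Tu-primed and 14 higher and 0 lower in Spl-primed cells (limma, with 0 lower at an unadjusted p under 0.05 too). With RLE factors, DESeq2, no filter or only the 8 libraries compared, 1 hypoxia-responsive gene, Hif1a, was called lower in Spl-primed cells. The cause was not tested.

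Leaving out 1 library, glycolysis genes called higher and lower were 1 to 4 and 0 to 0 (Tu-primed minus Spl-primed), 7 to 8 and 5 to 10 (Tu-primed minus parental) and 4 to 5 and 5 to 9 (Spl-primed minus parental), and hypoxia-responsive genes called higher 5 to 7, 11 to 12 and 9 to 9, and lower 0 to 1 in the last. The 1 came without Tu-primed replicate 1 or 3 or Spl-primed replicate 1, the 5 lower in Tu-primed cells without Tu-primed replicate 2 or 3 or parental replicate 4, and Hif1a was called lower without Tu-primed replicate 4 or Spl-primed replicate 1.

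The labels number the replicates in each group, but same-numbered libraries did not deviate together (correlations of -0.164 to 0.148). With a replicate block, 3 glycolysis and 7 hypoxia-responsive genes were higher in Tu-primed than in Spl-primed cells, 7 and 12 higher and 9 glycolysis genes lower in Tu-primed than in parental cells, and 4 and 9 higher and 6 glycolysis genes lower in Spl-primed than in parental cells. The replicate block took Pdk1 (0.051, Tu-primed minus Spl-primed) and Pgk1 (0.070, Tu-primed minus parental) over the threshold of the edgeR adjusted p. Genes of few counts, such as Adm and Selenbp1, have the widest errors.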
